A study of Cricetiscus sungorus with 24 samples.

Results

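Kidneys of 4 male Djungarian hamsters exposed to short photoperiod for 12 weeks (SP12wk, 8 h of light per day) were compared with kidneys of 4 males kept in long photoperiod (LP, 16 h of light per day). The genes described are those sequenced deeply enough to be followed in single animals. For each gene the transcript with most reads over all libraries was taken, and the gene was kept if that transcript had at least 60 reads over the 12 male libraries. This left 796 of 9681 genes (8.22%), which held 75.6% of the reads counted with 1 transcript per gene. Of these, 17 genes had exactly 60 reads, and 5 genes with 59 reads lay just outside. The choice used total depth and not the difference between the groups. Most of the 12 libraries were from short photoperiod, however, so that genes read mainly there could pass more easily than genes read mainly in LP. Gm11978, a predicted gene, passed with 60 reads, of which 1 was in LP and 22 in SP12wk. All males were adults that had lived in LP before the study, and none carried an altered allele or received an agent. The LP males stayed in LP as a reference group throughout the study, and short-photoperiod males were collected at intervals. The methods give neither exact ages nor dates of collection. Day length therefore cannot be told apart from a difference in either between the groups. Another 4 males, exposed to short photoperiod for 28 weeks (SP28wk), shared the flow cell. Their libraries counted in the choice of transcripts and genes. They also entered the model, in its filter, its scaling and its estimate of the spread between animals. The labels number the 4 libraries of a group as separate samples. The hamster reads were named by the mouse transcripts to which they aligned.

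Djungarian hamsters read day length through nocturnal melatonin and change body mass, reproduction, fur and circulating prolactin with the season. The bulk of the kidney is proximal tubule, which reclaims filtered water, salt, glucose, amino acids and small proteins. This transport is driven by the sodium pump, and the pump is fed by mitochondrial oxidative phosphorylation. Messages for respiratory chain subunits and for ribosomes were abundant in these libraries. The samples are whole kidney RNA, in which fewer cells of a type and less RNA per cell cannot be told apart. Proximal tubule was represented by Lrp2, the endocytic receptor megalin (319 reads in 12 libraries), Slc4a4, the basolateral sodium bicarbonate cotransporter (320.0 reads), Miox, which breaks down inositol (294 reads), and the water channel Aqp1 (173 reads). Markers of other segments were thin. Umod, the uromodulin of the thick limb, had 12 reads.

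The 8 libraries held between 15687 and 35387 reads, with 1 transcript per gene, and levels are given as CPM, the reads scaled to 1e6 of this total. A single read was worth 28.3 to 63.7 CPM. A gene without a read could have had up to 3 reads, or 84.8 to 191 CPM, which covers counting error only. Of the 796 genes, 140 had nearly the same counts as another gene in every library and are said to share reads, in 52 sets, so that the genes stood for 708 distinct sets of reads. LP libraries 2 and 3 stood apart. The 796 genes took 64.4% and 67.2% of their reads, against 75.7% to 78.3% in the other 6 libraries. Spearman correlations of LP library 2 with the other LP libraries over the 796 genes were 0.38 to 0.639, those among LP libraries 1, 3 and 4 were 0.68 to 0.775, and those among SP12wk libraries were 0.623 to 0.872. LP library 2 was nearly empty of several short messages. Its Fau and Uqcr11 were at 0 CPM, its Uqcrq and Cox7a2 at 112 CPM, and the other 3 LP libraries had 943 CPM or more of each of the 4 genes. The lists and most of the named genes are therefore also given without LP library 2, or without LP libraries 2 and 3, a choice made after seeing the data.

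A single gene differed after correction. By edgeR's quasi-likelihood test, adjusted by Benjamini-Hochberg over 5086 genes, Chchd2 was higher in SP12wk (adjusted p = 0.0326) and no gene was lower, which is 0.0197% and 0.0% of the genes tested. At an unadjusted p under 0.05, 77 of the 796 genes were higher in SP12wk (9.67%) and 15 were lower (1.88%), while over all genes tested the shares were 4.58% and 2.69%. The median log2 fold change (SP12wk minus LP) was 0.18 over the 796 genes and 0.00 over all genes. This balance depended on the scaling and on the LP libraries. With library totals in place of TMM the median of all genes was -0.17, that of the 796 genes 0.01, and 63 were higher (7.91%, against 3.7% of all genes tested) and 45 lower (5.65%, against 4.88%). Without LP library 2 no gene passed the correction, 39 of the 796 genes were higher (4.9%, against 2.95% of all genes tested) and 13 lower (1.63%, against 2.23%), and of these 35 and 10 were among the genes counted with all libraries. Without LP libraries 2 and 3 the counts were 23 (2.89%, against 2.1% of all genes tested) and 17 (2.14%, against 2.77%), of which 13 and 6 were shared with the full comparison. Snora73a and Snora73b then passed the adjustment as lower, which is 0.0433% of the 4623 genes tested.

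**Figure D1:**
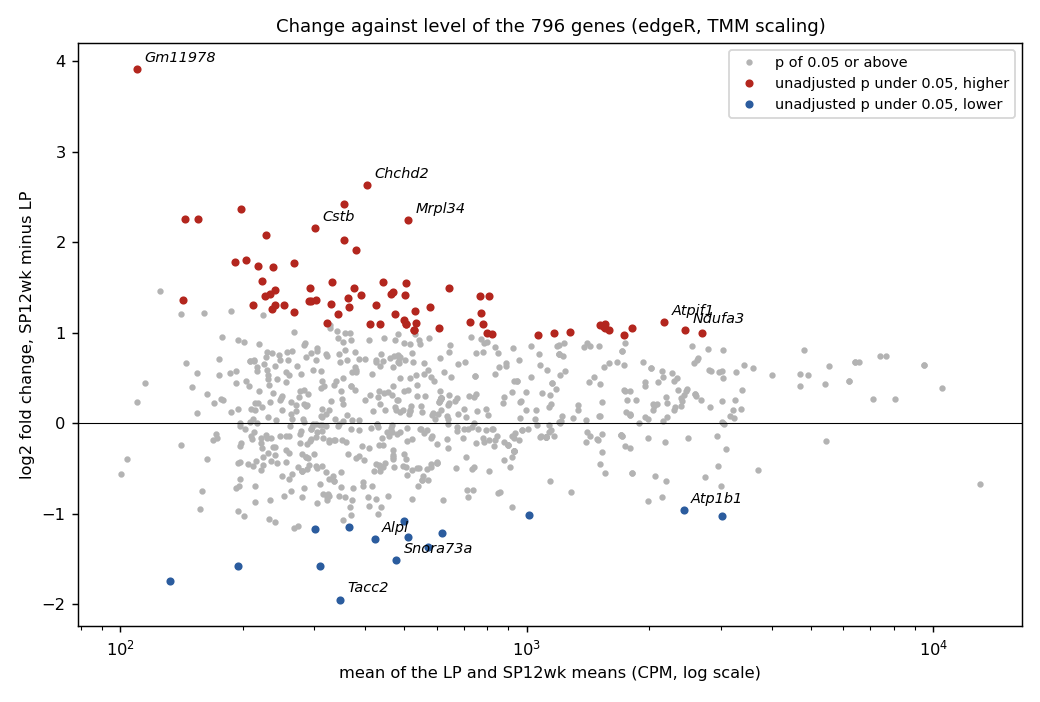
Each point is 1 of the 796 genes, placed by the mean of its LP and SP12wk means (CPM, log scale) and its log2 fold change (SP12wk minus LP, edgeR with TMM scaling). Red and blue points mark the 77 higher and 15 lower genes at an unadjusted p under 0.05, of which Chchd2 alone passed the adjustment.

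Other single libraries moved these counts as well. No gene passed the adjustment without LP library 1, 3 or SP12wk library 3 or 4. Without LP library 4, 8 of the 4888 genes tested passed as higher. Without SP12wk library 1 they were 7 of 4867, and without SP12wk library 2 they were 4 of 4933. Chchd2, Zbed5 and Gm11978 were in all of the latter 3 sets, and Mrpl34 and Rida were in the first pair of them. Of the 796 genes, those at an unadjusted p under 0.05 numbered 164 without LP library 1 (133 higher, 31 lower) and 171 without LP library 4 (154 and 17). They numbered 54 without LP library 3 (45 and 9) and 49 without SP12wk library 4 (36 and 13), beside 92 with all libraries (77 and 15). Shares over all genes tested were not taken in these fits with a library left out, so the counts cannot be set against them.

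The genes with the smallest p on the higher side included several that were read in some SP12wk animals and not in others. Chchd2, a mitochondrial protein that takes part in respiration, had 47.0, 0, 0 and 388 CPM in LP and 0, 0, 1757 and 1046 CPM in SP12wk. SP12wk libraries 3 and 4 stood above all LP libraries, and SP12wk libraries 1 and 2 held no read. The means were 109 ± 188 CPM in LP and 701 ± 860 CPM in SP12wk (SD, n = 4), from 11 and 72 reads, and the log2 fold change was 2.63 (SE 0.58), or 1.66 without LP libraries 2 and 3. The model gave each gene the spread of the trend over all genes and no weight to its own spread. When it was fitted to allow for genes of outlying spread, an alternative added after seeing the data, no gene passed the adjustment, with 249 genes higher (4.9%) and 154 lower (3.03%) at an unadjusted p under 0.05, of which 74 (9.3% of the 796) and 14 (1.76%) were among the 796, and the unadjusted p of Chchd2 was 0.0298. The difference in mean CPM had p = 0.429 in a two-sided exact permutation test over the 8 libraries, where 0.0286 is the smallest p possible. The counts of Zbed5, a zinc finger gene of transposon origin, followed those of Chchd2. Zbed5 had the same 4 values as Chchd2 in LP and 0, 0, 1506 and 904 CPM in SP12wk. Gm11978, a predicted gene, had 1 read in LP, in library 4, and 0, 0, 502 and 339 CPM in SP12wk. None of these 3 genes met the rule for sharing reads, with 213, 179 and 60 reads over the 12 libraries. Whether some of their reads are the same was not tested, and they are given as uncertain.

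The same 2 SP12wk libraries carried the reads of the kallikreins and of several detoxifying enzymes. Klk1, the tissue kallikrein that releases kinins, had 94.1, 0, 0 and 117 CPM in LP and 40.9, 0, 653 and 339 CPM in SP12wk. Its paralogue Klk1b5 had 94.1, 0, 0 and 155 CPM in LP and 40.9, 0, 904 and 396 CPM in SP12wk, and reads may be split between the pair or counted on both. Rida, which removes reactive imines of amino acid breakdown, had 0, 0, 111 and 544 CPM in LP and 40.9, 0, 1355 and 989 CPM in SP12wk. In each of these genes SP12wk libraries 1 and 2 lay inside the LP range and libraries 3 and 4 above it. The glutathione transferases behaved alike. Gstt1 had at most 155 CPM in LP and 40.9, 0, 402 and 509 CPM in SP12wk, and Gsta3 had at most 349.6 CPM in LP and 0, 63.7, 803 and 763 CPM in SP12wk. Log2 fold changes of the 5 genes were between 1.77 and 2.36, with unadjusted p between 0.000557 and 0.00285 and adjusted p of 0.263 or above by edgeR's quasi-likelihood test, Benjamini-Hochberg. Without LP libraries 2 and 3 they were 1.31 for Klk1, 1.41 for Klk1b5, 1.13 for Rida, 1.33 for Gstt1 and 1.22 for Gsta3. With the fit that allows for outlying spread the unadjusted p of Rida was 0.084.

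Mrpl34, Cstb, Fam32a and Atp6v1f were read in all 4 SP12wk animals. Mrpl34, a protein of the large mitochondrial ribosomal subunit, had 141, 0, 277 and 311 CPM in LP and 245, 1084, 1205 and 820 CPM in SP12wk, so that a single SP12wk library overlapped LP. Its log2 fold change was 2.24 (SE 0.55, adjusted p = 0.0775 by edgeR's quasi-likelihood test, Benjamini-Hochberg), and 1.79 without LP libraries 2 and 3. Cstb, the cathepsin inhibitor cystatin B, had 141, 0, 111 and 194 CPM in LP and 327, 510.0, 653 and 480.4 CPM in SP12wk. The groups did not overlap, and the log2 fold change was 2.15 (SE 0.61, adjusted p = 0.263), or 1.5 without LP libraries 2 and 3. Fam32a, a splicing factor component, had 56.1 to 311 CPM in LP and 164 to 1104 CPM in SP12wk (log2 fold change 2.02, SE 0.58, and 1.42 without LP libraries 2 and 3). Atp6v1f, a subunit of the proton pump that acidifies lysosomes and urine, had 282, 0, 0 and 77.7 CPM in LP and 81.7, 191, 653 and 537 CPM in SP12wk (log2 fold change 2.08, SE 0.64). LP libraries 2 and 3 held no read of it, and without them the log2 fold change was 1.12. It was the only 1 of 6 V-ATPase genes with an unadjusted p under 0.05 (16.7%, against 9.67% of the 796 genes), and the median of the 6 was 0.42.

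On the lower side the messages were of several kinds. Tacc2, a centrosome and microtubule protein, had 423, 505, 499 and 893 CPM in LP and 81.7, 0, 151 and 226 CPM in SP12wk. Each LP library was above each SP12wk library. The log2 fold change was -1.95 (SE 0.58, adjusted p = 0.293 by edgeR's quasi-likelihood test, Benjamini-Hochberg) and it was -2.28 without LP libraries 2 and 3 (adjusted p = 0.16). Alpl, the alkaline phosphatase of the tubule brush border, had 564, 617, 1054 and 311 CPM in LP and 286, 128, 201 and 226 CPM in SP12wk, again without overlap (log2 fold change -1.28, SE 0.54, and -0.96 without LP libraries 2 and 3).

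Snora73a and Snora73b, near-identical small nucleolar RNAs used in the processing of ribosomal RNA, were among the lowest. Snora73a had 847, 449, 277 and 1321 CPM in LP and 81.7, 255, 251 and 339 CPM in SP12wk, so that LP library 3 overlapped SP12wk. Snora73b had 388 to 1515 CPM in LP and 122.6 to 396 CPM in SP12wk. Reads of the pair may be split or counted on both. Their log2 fold changes were -1.51 (SE 0.54) and -1.37 (SE 0.52), with adjusted p of 0.575 and 0.577 by edgeR's quasi-likelihood test, Benjamini-Hochberg. Without LP libraries 2 and 3 they were -2.17 and -1.98, both with an adjusted p of 0.00645. Without LP library 4, which held the most reads of both, they were -0.89 and -0.77, with adjusted p of 0.602 and 0.646 by edgeR. Rn7sk, the 7SK RNA that restrains transcription elongation, had 388 to 673 CPM in LP and 50.2 to 327 CPM in SP12wk without overlap (log2 fold change -1.15, SE 0.55, unadjusted p = 0.0376), and its log2 fold change was -1.33 without LP libraries 2 and 3. Of the 6 small noncoding RNAs, 3 were lower at an unadjusted p under 0.05, against 1.88% of the 796 genes and 2.69% of all genes tested, and 2 of the 3 are the near-identical pair. The median log2 fold change was -0.77, and it was -1.12 without LP libraries 2 and 3 and -0.41 without LP library 4. Snord3a, the U3 RNA, had 666 to 2187 CPM in LP and 509 to 2044 CPM in SP12wk, which is no separation. Bc1, a rodent noncoding RNA that represses translation, had 470.4 to 2131 CPM in LP and 251 to 1022 CPM in SP12wk, and it shared nearly all its reads with the predicted gene Gm33937.

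**Figure D2:**
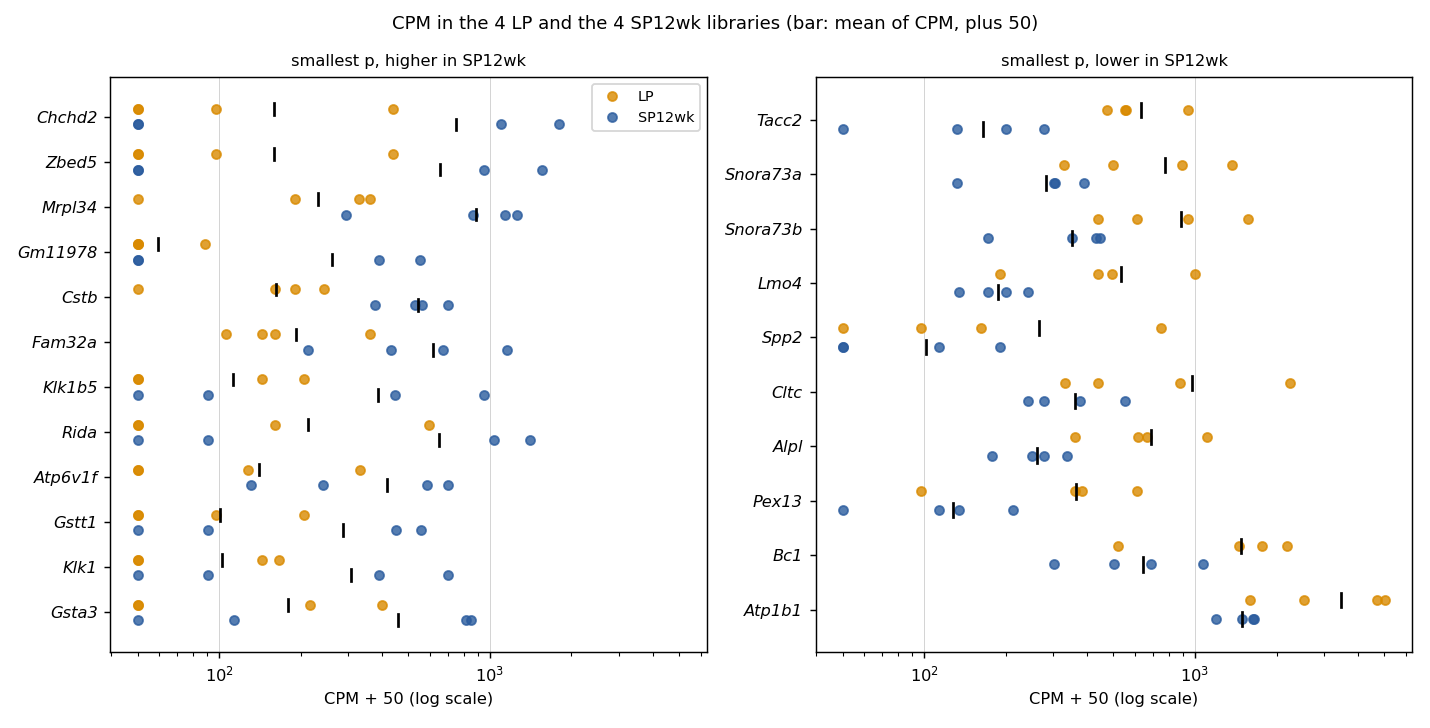
CPM plus 50 (log scale) of the 12 higher and 10 of the lower genes with the smallest p, with 1 point per library for LP (orange) and SP12wk (blue) and a black bar at the mean of CPM plus 50. For Chchd2, Zbed5, Gm11978, Klk1 and Gstt1 the blue points split into low and high animals, whereas for Cstb, Tacc2 and Alpl the orange and blue points do not overlap.

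Atp1b1 and Cltc had their highest values in LP libraries 2 and 3. Atp1b1, the beta subunit of the sodium pump, had 1552, 4655, 4994 and 2486 CPM in LP and 1147 to 1606 CPM in SP12wk (log2 fold change -0.96, SE 0.46, and -0.48 without LP libraries 2 and 3). Cltc, the clathrin heavy chain of endocytic vesicles, had 2187 CPM in LP library 2 and 282 to 832 CPM in the other LP libraries, against 191 to 502 CPM in SP12wk, and its log2 fold change moved from -1.21 to -0.13. Lmo4, a LIM domain cofactor of transcription, had 141, 953, 444 and 388 CPM in LP and 84.8 to 191 CPM in SP12wk. Pex13, which admits proteins to peroxisomes, had 47.0 to 561 CPM in LP and 0 to 164 CPM in SP12wk. Spp2, a secreted phosphoprotein, had 699 of its CPM in LP library 4, 0 to 112 CPM in the other LP libraries and 0 to 141 CPM in SP12wk. Its log2 fold change of -1.74 became 0.49 without LP library 4.

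In 23 genes all SP12wk libraries were above all LP libraries (2.89%, against 1.12% of all genes tested), and in 14 all were below (1.76%, against 1.55%). Of these, 18 of the higher and 4 of the lower genes also had an unadjusted p under 0.05. The genes named from these sets were chosen after their values were seen. Ndufb3, an accessory subunit of complex I, had 282, 0, 277 and 505 CPM in LP and 572, 701, 703 and 989 CPM in SP12wk. Nat8, a kidney and liver acetyltransferase of the mercapturate pathway, had 329, 0, 277 and 233 CPM in LP and 531, 510.0, 452 and 678 CPM in SP12wk. Rpl3, a protein of the large ribosomal subunit, had 282, 112, 55.5 and 233 CPM in LP and 613, 637, 351 and 367 CPM in SP12wk. Their log2 fold changes were 1.55, 1.49 and 1.56 with all libraries and 0.92, 0.99 and 0.90 without LP libraries 2 and 3. Hypk, a chaperone partner of the ribosome-bound acetyltransferase, had 56.1 to 470.4 CPM in LP and 510.0 to 1104 CPM in SP12wk. Higd1a, a hypoxia-induced partner of the respiratory chain, had 168 to 444 CPM in LP and 510.0 to 1046 CPM in SP12wk. Naa38, an acetyltransferase subunit, had 94.1 to 311 CPM in LP and 339 to 552 CPM in SP12wk. Polr2l, a small subunit shared by the RNA polymerases, had 988, 0, 832 and 932 CPM in LP and 1104 to 1211 CPM in SP12wk, so that 3 of its LP libraries were close to SP12wk.

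Among the 14 lower genes, Mlf2, myeloid leukaemia factor 2, had 272 to 449 CPM in LP and 141 to 245 CPM in SP12wk. App, the amyloid precursor protein, had 706, 1963, 1054 and 854 CPM in LP and the narrow range of 537 to 574 CPM in SP12wk. Vdac1, the main channel of the outer mitochondrial membrane, had 564 to 1221 CPM in LP and 191 to 531 CPM in SP12wk. Prkar1a, the regulatory subunit of protein kinase A, had 272 to 832 CPM in LP and 113 to 255 CPM in SP12wk. Acsl1, which activates long-chain fatty acids, had 659, 785, 555 and 583 CPM in LP and 449.6, 446, 351 and 339 CPM in SP12wk. The gaps between the groups were small, and log2 fold changes of these 5 genes were between -1.07 and -0.52 with unadjusted p between 0.0591 and 0.31 in edgeR's quasi-likelihood test. Cnbp and Pcbp1, both nucleic acid binding proteins, and Vapa, which tethers the endoplasmic reticulum to other membranes, were in this set with Tacc2, Alpl and Rn7sk. Fam166a and the predicted gene Gm20594 were also in it. Gm20594 was the deepest of them, with 11901, 26248, 12485 and 16547 CPM in LP and 11894, 11602, 6224 and 6952 CPM in SP12wk, a gap of a few CPM between the groups.

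Messages of the respiratory chain made up the largest annotated share of the higher genes. Of the 33 complex I genes, which take electrons from NADH, 32 had a log2 fold change above 0, the median was 0.78 and 12 were higher at an unadjusted p under 0.05 (36.4%) with none lower. Over the 796 genes, 480 were above 0, the median was 0.18 and 9.67% were higher at that p. These were Ndufa1, Ndufa3, Ndufa7, Ndufb3, Ndufb5, Ndufb8, Ndufb10, Ndufc1, Ndufs3, Ndufs6, Ndufs8 and Ndufv3. Complex I genes together took 3.20%, 0.886%, 1.88% and 2.44% of the reads in LP and 2.99%, 3.40%, 3.40% and 3.76% in SP12wk. LP library 1 was within the SP12wk range and LP library 2 far below the rest. Without LP library 2 the median was 0.56 and 6 genes were higher, and without LP libraries 2 and 3 it was 0.28 with none higher. It was 1.22 without LP library 1, which had the highest LP share. Ndufs6, an iron-sulfur fragment subunit needed for assembly, had 894, 56.1, 333 and 466 CPM in LP and 940.1, 1084, 1054 and 1300 CPM in SP12wk (log2 fold change 1.40, SE 0.49, and 0.72 without LP libraries 2 and 3). Ndufs3, a core subunit, had 47.0, 112, 55.5 and 155 CPM in LP and 122.6, 191, 452 and 396 CPM in SP12wk. Its log2 fold change was 1.78 (SE 0.66), and 1.75 and 1.47 without LP library 2 and without LP libraries 2 and 3, so that it moved less than that of Ndufa3, a small accessory subunit, which was 1.03, 0.71 and 0.45.

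Downstream complexes gave the same order of values. Of 11 genes of complexes II and III with cytochrome c, 9 were above 0, with a median of 0.53 that became 0.24 and 0.00 in the fits without LP library 2 and without LP libraries 2 and 3. Uqcr11, a small complex III subunit, was the only 1 with an unadjusted p under 0.05 (9.09%), and none was higher at that p without LP library 2. Uqcr11 had 1176, 0, 943 and 1049 CPM in LP and 1255 to 2231 CPM in SP12wk. All 13 complex IV genes, which pass electrons to oxygen, were above 0, with a median of 0.70 that became 0.39 and 0.05. Cox8a and Higd1a were higher at an unadjusted p under 0.05 (15.4%), and 1 complex IV gene was higher at that p without LP library 2. Cox8a had 3575, 729, 1998 and 1243 CPM in LP and 2085 to 4869 CPM in SP12wk. Of 15 genes of ATP synthase and its inhibitor, 14 were above 0, with a median of 0.63 that became 0.30 and 0.07. Atp5j, Atp5k, Atp5o and Atpif1 were higher at an unadjusted p under 0.05 (26.7%), and 1 gene of this group was higher at that p without LP library 2. The shares stand beside 9.67% of the 796 genes and 4.58% of all genes tested with all libraries. Without LP library 2 these were 4.9% and 2.95%. Atpif1, the inhibitor that stops the enzyme from running backwards, had 2775, 561, 1665 and 777 CPM in LP and 2534, 3506, 2460 and 3137 CPM in SP12wk (log2 fold change 1.12, SE 0.46, and 0.73 without LP libraries 2 and 3). Atp5a1, the alpha subunit of the catalytic head, was the exception with a log2 fold change of -0.64.

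**Figure D3:**
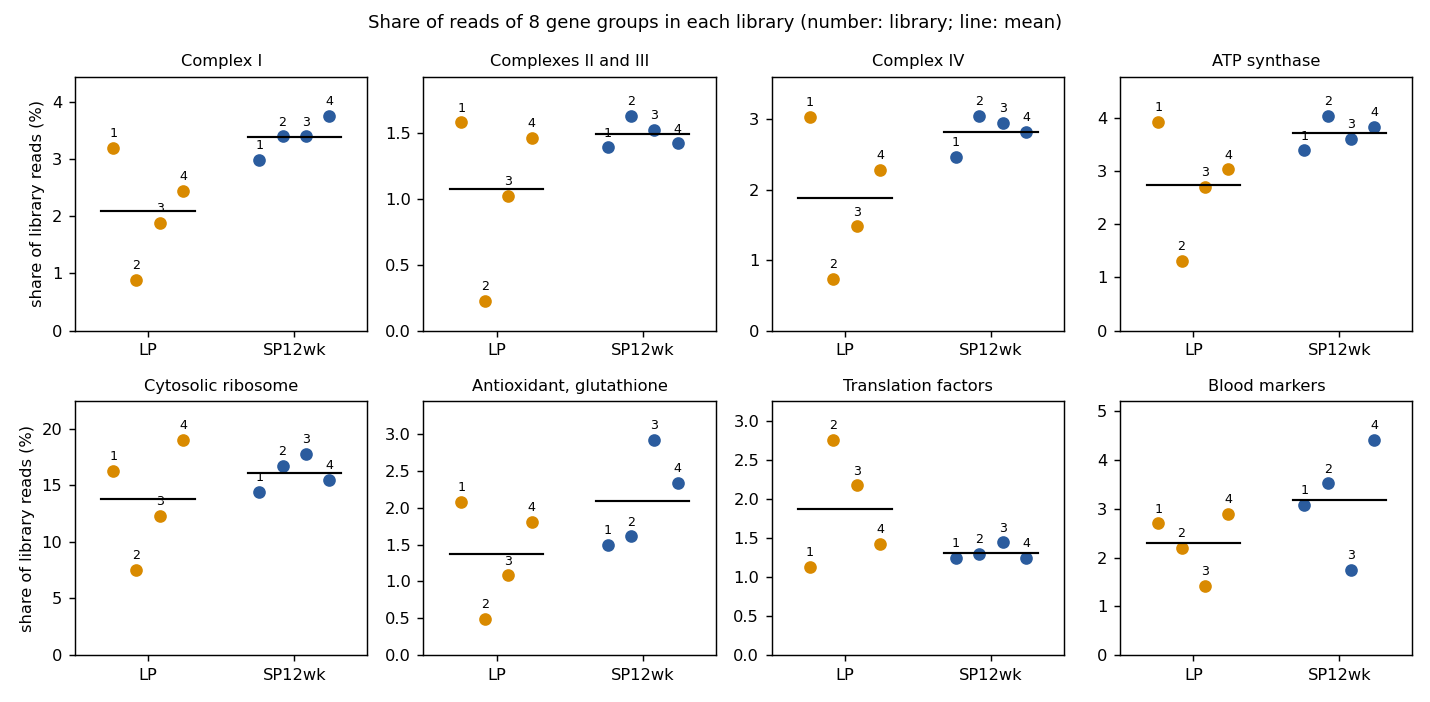
Share of library reads (%) taken by 8 gene groups, with 1 numbered point per library and a line at the mean of the 4 LP and the 4 SP12wk libraries. LP library 2 is the lowest point for complexes I to IV, ATP synthase, the cytosolic ribosome and the antioxidant group and the highest for translation factors, and the blood markers reach 4.41% in SP12wk library 4. LP libraries 1 and 4 lie nearer to SP12wk.

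Translation was represented by 82 genes of the cytosolic ribosome. Their median log2 fold change was 0.26, with 68 above 0 and 14 below, but it was 0.07 without LP library 2 and -0.11 without LP libraries 2 and 3, so that the direction of the group rested on these libraries. The group took 16.3%, 7.54%, 12.3% and 19.0% of the reads in LP and 14.4% to 17.8% in SP12wk. With all libraries 7 of the 82 were higher at an unadjusted p under 0.05, a share of 8.54% that is below the 9.67% of the 796 genes. Among them were Rpl3, Rpl15, Rpl21, Rpl23a, Rpl29 and Rpl41, and without LP library 2 Rpl3 and Rpl15 were higher. Rpl15 had 612, 505, 555 and 466 CPM in LP and 531, 1339, 1205 and 1046 CPM in SP12wk, and its log2 fold change of 1.09 (SE 0.49) was 0.91 without LP libraries 2 and 3. Rpl21 and Rpl41 are uncertain, since they shared nearly all their reads with the predicted genes Gm15682 and Gm31458. In the fit without LP libraries 2 and 3 Rpl15 was higher and Rpl22, Rpl38 and Rps21 were lower at an unadjusted p under 0.05, where 2.89% and 2.14% of the 796 genes were. Of 12 genes of the mitochondrial ribosome and of protein import into mitochondria, 11 were above 0, with a median of 0.64 that became 0.32 and 0.05. Mrpl23 and Mrpl34 were higher at an unadjusted p under 0.05 (16.7%, against 9.67% of the 796 genes), and 1 gene of this group was without LP library 2. The 18 translation factors had a median of -0.24, with none past an unadjusted p of 0.05, and 0.08 without LP libraries 2 and 3. Eef1a1, which delivers transfer RNA to the ribosome, had 2728, 6842, 5604 and 3535 CPM in LP and 2486 to 2962 CPM in SP12wk.

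**Figure D4:**
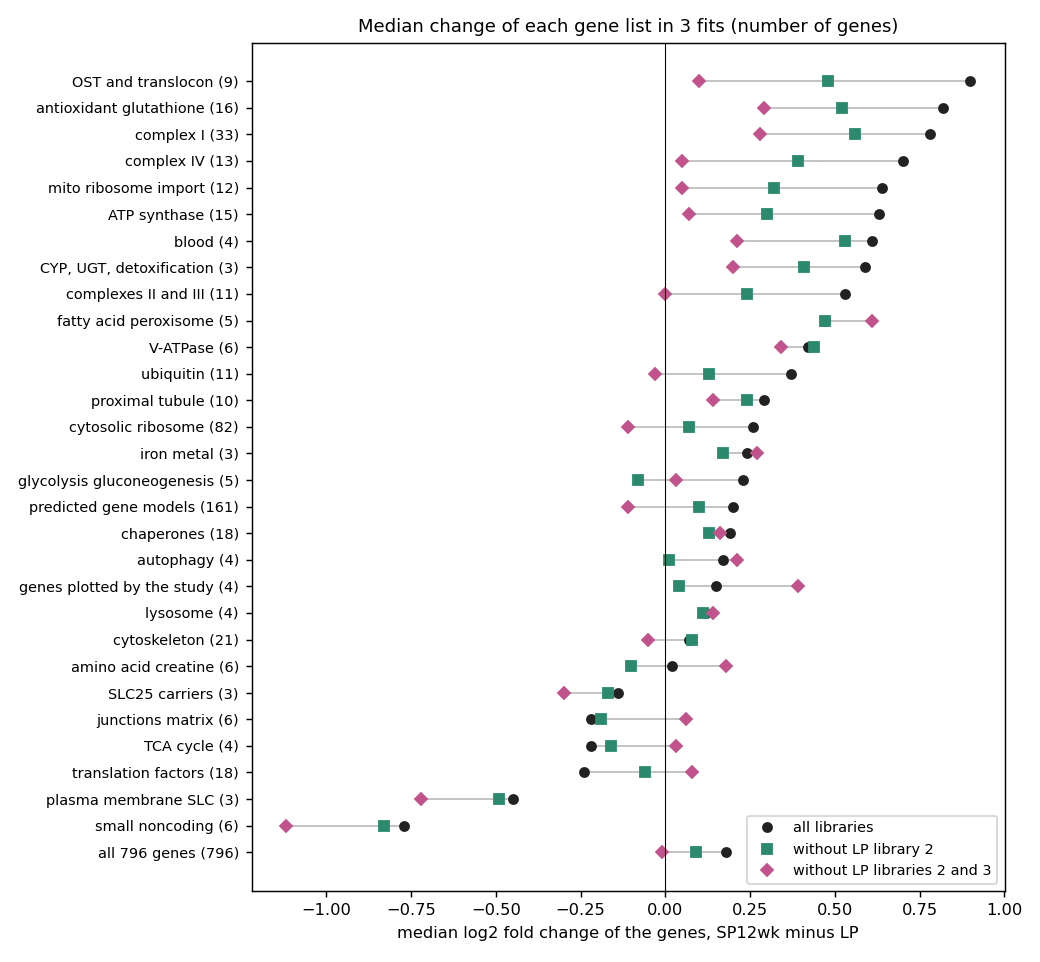
Median log2 fold change (SP12wk minus LP) of each list with at least 3 of the genes, with all libraries (circles), without LP library 2 (squares) and without LP libraries 2 and 3 (diamonds), and the number of genes in parentheses. Medians of complexes I to IV, ATP synthase and the antioxidant group move towards 0 as the libraries are left out, that of the small noncoding RNAs moves from -0.77 to -1.12, and that of the cytosolic ribosome crosses from 0.26 to -0.11.

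Enzymes that handle peroxides and glutathione took 2.08%, 0.494%, 1.08% and 1.81% of the reads in LP and 1.49%, 1.61%, 2.92% and 2.34% in SP12wk, so that SP12wk libraries 1 and 2 lay below LP libraries 1 and 4. Of the 16 such genes among the 796, 14 had a log2 fold change above 0 and the median was 0.82. Gpx4, Gsta2, Gsta3, Gstt1, Prdx1 and Sod1 were higher at an unadjusted p under 0.05. Over the 796 genes, 480 were above 0, the median was 0.18 and 9.67% were higher at that p. The median was 0.52 without LP library 2, with Gsta3, Gstt1 and Prdx1 still past that p, and 0.29 without LP libraries 2 and 3, with none higher. Gsta2 shared nearly all its reads with the predicted gene Gm10639 and is uncertain. Prdx1, a peroxide-reducing peroxiredoxin, had 376, 56.1, 499 and 971 CPM in LP and 164, 0, 2560.0 and 1837 CPM in SP12wk. As in Chchd2, SP12wk libraries 3 and 4 were above the LP range, and libraries 1 and 2 were below LP libraries 1, 3 and 4. Sod1, the cytosolic superoxide dismutase, had 470.4, 112, 610.4 and 738 CPM in LP and 531, 892, 1205 and 1243 CPM in SP12wk (log2 fold change 1.12, SE 0.49, and 0.68 without LP libraries 2 and 3). Gpx3, the plasma glutathione peroxidase secreted by proximal tubule, had 7573, 785, 1276 and 4428 CPM in LP and 4210.5 to 7529.5 CPM in SP12wk, and its log2 fold change of 0.81 was 0.01 without LP libraries 2 and 3. Selenop, the selenium carrier, had 4234, 1795, 1498 and 2641 CPM in LP and 1154 to 1849 CPM in SP12wk. Its log2 fold change was -0.58 (unadjusted p = 0.214), -0.75 without LP library 2 (unadjusted p = 0.0439) and -1.10 without LP libraries 2 and 3 (unadjusted p = 0.00043, adjusted p = 0.331 by edgeR).

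No gene of tubule segments or of solute transport passed the adjustment. The 3 plasma membrane solute carriers among the 796 genes had a median of -0.45, and -0.72 without LP libraries 2 and 3, with none past an unadjusted p of 0.05. Of 10 proximal tubule genes 8 were above 0 with a median of 0.29, which was 0.14 without LP libraries 2 and 3. Calml4, a calmodulin-like protein of the brush border, Khk, which phosphorylates fructose, and Gsta2 were higher at an unadjusted p under 0.05 with all libraries. At that p 9.67% of the 796 genes and 4.58% of all genes tested were higher. Without LP library 2 none of the 10 was higher, against 4.9% of the 796 genes and 2.95% of all genes tested. Khk had 282, 0, 55.5 and 155 CPM in LP and 327, 319, 703 and 84.8 CPM in SP12wk. Lrp2 had 847 to 1346 CPM in LP and 803 to 1530 CPM in SP12wk, and Slc4a4 had 333 to 1554 CPM in LP and 424 to 1084 CPM in SP12wk, both with overlapping groups. Wnk1, a kinase that sets distal salt transport, had 141, 673, 832 and 155 CPM in LP and 128 to 402 CPM in SP12wk. Car2, the carbonic anhydrase of acid-secreting cells, had 329, 505, 222 and 272 CPM in LP and 40.9, 191, 301 and 56.5 CPM in SP12wk (log2 fold change -1.09, SE 0.63, unadjusted p = 0.0817, and -1.17 without LP libraries 2 and 3). Haemoglobin messages mark blood in the tissue, and 6 of the 12 blood markers listed were in the table. They took 2.70%, 2.20%, 1.42% and 2.89% of the reads in LP and 3.08%, 3.52%, 1.75% and 4.41% in SP12wk, and their part in the results was not tested. Genes that shared reads were each counted in full in these shares, so that most globin reads entered more than once and the shares are too high. Hba-a1 and Hba-a2, which shared nearly all their reads, had a log2 fold change of 0.74 each (unadjusted p = 0.12 and 0.119), and 0.88 without LP library 2 (unadjusted p = 0.0151 and 0.0162). Hbb-bs and Hbb-bt, which also shared nearly all their reads, had a log2 fold change of 0.47 each (unadjusted p = 0.318), 0.18 without LP library 2 and -0.15 without LP libraries 2 and 3, where the alpha globins were at 0.59 and 0.57. Lists of adipose and adrenal, immune, androgen-responsive, immediate early and circadian genes and of the proteasome held none of the 796 genes.

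Intermediary metabolism showed no gene past the adjustment and few at an unadjusted p under 0.05. The 4 TCA cycle genes had a median of -0.22 (0.03 without LP libraries 2 and 3) and the 6 genes of amino acid and creatine metabolism a median of 0.02 (-0.10 without LP library 2), with none past that p. Among 5 glycolytic and gluconeogenic genes, Pck1, the gate to gluconeogenesis, had 112 to 555 CPM in LP and 191 to 311 CPM in SP12wk (log2 fold change 0.01, SE 0.54). Hibadh, of valine breakdown, had 1505, 6001, 5604 and 1282 CPM in LP and 1144 to 2487 CPM in SP12wk. Its log2 fold change of -0.60 became 0.45 without LP libraries 2 and 3. Fabp3, a carrier of fatty acids, had 329, 56.1, 277 and 544 CPM in LP and 368, 701, 452 and 1074 CPM in SP12wk (log2 fold change 1.21, SE 0.52, unadjusted p = 0.0192, and 0.61 without LP libraries 2 and 3). Among 18 chaperones Ppib, a prolyl isomerase of the endoplasmic reticulum, had 94.1, 0, 222 and 155 CPM in LP and 245, 191, 653 and 339 CPM in SP12wk, and its log2 fold change of 1.72 (SE 0.63) was 1.46 without LP libraries 2 and 3. The 9 genes of protein translocation and N-glycosylation had a median of 0.90 and 0.10 without LP libraries 2 and 3. Krtcap2 and Dad1 were higher at an unadjusted p under 0.05 (22.2%, against 9.67% of the 796 genes), and none of the 9 was without LP library 2. The 21 cytoskeletal genes had a median of 0.07 (-0.11 with library totals) with none past that p, and Actb, beta actin, had 1515 to 2692 CPM in LP and 1656 to 2085 CPM in SP12wk. Of the 77 higher genes 24 and of the 15 lower genes 10 were in none of the 42 lists.

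The study plotted 10 genes for the males, of which Slc25a5, Slc52a2, Dad1 and Gsta1 were deep enough to be among the 796. Because that choice was made on these animals, their direction is not independent evidence. Slc25a5, the mitochondrial exchanger of ADP and ATP, had 1740.4, 2580.0, 2386 and 1204 CPM in LP and 1267, 1019.9, 1054 and 1187 CPM in SP12wk, where LP library 4 overlapped. Its log2 fold change was -0.55 (SE 0.46, unadjusted p = 0.228). Slc52a2, a riboflavin transporter, had 47.0, 449, 888 and 194 CPM in LP and 572, 0, 0 and 84.8 CPM in SP12wk, and its log2 fold change of -0.82 became 0.47 without LP libraries 2 and 3. Dad1, a subunit of the oligosaccharyltransferase, had 235, 0, 111 and 233 CPM in LP and 164, 319, 351 and 509 CPM in SP12wk (log2 fold change 1.30, SE 0.60, unadjusted p = 0.0316), and 0.58 without LP libraries 2 and 3. Gsta1 had 280.4 to 1364 CPM in LP and 490.5 to 1809 CPM in SP12wk (log2 fold change 0.85, SE 0.47, and 0.30 without LP libraries 2 and 3). The shallow genes gave no separation. Cdh2, the cadherin of proximal tubule junctions, had 4 reads in LP and 8 in SP12wk, and Umod had 4 and 5. Prlr, the prolactin receptor, had 0 reads in all 8 libraries, which allows up to 84.8 to 191 CPM in a library.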

How the data were processed

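Kidney RNA of 12 male hamsters (4 LP, 4 SP12wk, 4 SP28wk) was sequenced on a single nanopore flow cell. The methods name a direct cDNA kit and the labels a PCR-cDNA kit. Guppy, Porechop, Filtlong and Minimap2 were used by the authors for basecalling, trimming, read selection and alignment to the mouse genome. The submitters' processing notes name minimap2 and Salmon without saying which made the counts. The values deposited are estimated counts of 36662 transcripts, not normalized, of which 2868 of 439944 were not whole. They were rounded to whole numbers. A gene was read as its transcript of highest total, since summing its transcripts gave 2.15 to 3.31 times the reads.

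In R 4.3.3, edgeR 4.0.16 was fitted to the 12 libraries (TMM scaling, glmQLFit, genes with a read in at least 4 libraries, Benjamini-Hochberg over 5086 genes, threshold 0.05). The standard error is the log2 fold change divided by the root of F. Scripts were tested on simulated data. DESeq2 1.42.0, limma-voom 3.58.1, other scalings and filters, summed transcripts, a replicate block and libraries left out served as alternatives. Genes were said to share reads where their summed difference was at most 10% of the larger total over the 12 libraries. Genes were named by rule: up to 12 per direction with the smallest p, up to 4 per list with most reads, the 10 genes plotted by the study, and Cdh2, Prlr and Umod. Kap was not analysed here, and a few other genes that the rule names are not reported here. Other genes, named from the lists or because their groups did not overlap, were chosen after their values were seen. The 796 genes and the lists were chosen with earlier results of these data known. The p-values of the main fit set a difference against the spread between these samples, taken as a trend over all genes. The spread of the gene itself had no weight in them.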

Additional observations from a re-analysis of the deposited data

Results flagged for a closer look

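In 10 of 150 groups of 4 libraries, taken over the genes and lists named here, the highest or lowest library lay far from the other 3, where chance gives about 1 in 20. In LP, library 4 was the high library for Chchd2 (388.4 CPM), Zbed5 (388.4 CPM), Gm11978 (38.8 CPM, a single read) and Spp2 (699.2 CPM). LP library 4 was the low library for the summed V-ATPase genes (2175.2 CPM), and LP library 2 was the low library for the summed genes of protein translocation and N-glycosylation (2131.3 CPM). In SP12wk, library 1 was the high library for Slc52a2 (572.2 CPM), library 4 for Suclg2 (28.3 CPM) and library 3 for Shfl (50.2 CPM), the last pair a single read each. SP12wk library 3 was also the high library for the summed proximal tubule genes (17819.8 CPM, against 12494 to 13310 CPM in the other 3).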

How the results depend on the processing

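The adjusted count, 1 gene, was also 1 with DESeq2's size factors in edgeR. It was 0 with DESeq2, limma-voom, LP and SP12wk libraries only, the fit robust to outlying spread, library totals, no filter, only genes of at least 60 reads, summed transcripts and the replicate block, and 0 to 8 with single libraries left out. The 92 genes at an unadjusted p under 0.05 were 40 without LP libraries 2 and 3, 187 with limma-voom, 19 with summed transcripts, 75 (39 higher, 36 lower) with only genes of at least 60 reads, and 49 to 171 with single libraries left out. Shares over all genes tested were not taken with limma-voom, summed transcripts, the replicate block or single libraries left out, except LP library 2. The 37 genes without overlap were 57 at a minimum of 30 reads, 21 at 120 reads, 92 without LP libraries 2 and 3 and 43 to 114 with single libraries left out, where fewer libraries overlap more rarely. Leaving out LP libraries 2 and 3 together and the robust fit were chosen after seeing the data. Same-numbered LP and SP12wk libraries had correlations of -0.188, 0.139, 0.0955 and 0.253, and 2 of 4 correlated best with their own number. So few values cannot settle whether the numbers pair the animals. The labels give the libraries as separate samples and state no pairing. With the replicate block 109 genes were at an unadjusted p under 0.05. Without LP libraries 2 and 3 the log2 fold changes of Slc52a2 (0.47), Ahsa2 (0.49) and Umod (-0.26) changed sign. Umod also did with limma-voom (-0.08), without LP library 2 (-0.11) and without SP12wk library 3 (-0.56), with 0.83 as its highest value without a library. Spp2 was 0.49 without LP library 4 and at least -3.45 otherwise, and Ahsa2 was 0.96 without LP library 3 and at least -1.2 otherwise. The causes were not tested. Depth limits single animals to steps of 28.3 CPM or more.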

Other observations

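In the 4 SP28wk libraries the snoRNAs that were low in SP12wk were read more often. Snora73a had 435, 1286, 2571 and 2084 CPM and Snora73b had 514, 1660, 3199 and 2587 CPM in SP28wk, each above its 4 SP12wk values. Mrpl34 had 747 to 1028 CPM, within the range of SP12wk and above that of LP. Cstb had 237 to 332 CPM, between the LP range and the upper 3 SP12wk libraries. Chchd2 had 395, 1162, 1314 and 799 CPM, so that all 4 animals had reads, unlike SP12wk. Tacc2 had 257 to 373 CPM, below the 4 LP libraries and above the 4 SP12wk libraries. Alpl had 124.5 to 314 CPM, which spans the SP12wk range. These values were not tested against SP12wk or LP.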
